A study of Homo sapiens with 12 samples.

Results

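ATF4 is the transcription factor of the integrated stress response, and 32 genes made up of ATF4 itself, genes it is known to act on or with, and the enzymes of serine synthesis were described across all 12 libraries of the series. The genes were taken by symbol from a table of 20114 genes, in which all 32 were present, and all 32 had enough counts to test, as did 13872 genes in all. T47D cells, from a human breast carcinoma and positive for the progesterone and estrogen receptors, were used. They were serum-starved and then given vehicle, 100 pM or 10 nM of a progestin, which activates the progesterone receptor and which the labels do not name. Total RNA was taken at 6 h and at 18 h, which gives 6 groups: vehicle, 100 pM and 10 nM at 6 h, and vehicle, 100 pM and 10 nM at 18 h. Each group had 2 libraries, numbered replicate 1 and replicate 3, and nothing says that they came from separate cultures, so a p-value here covers only how these samples vary. All groups shared 1 cell line, the starvation and medium without phenol red.

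When amino acids run short or proteins misfold, kinases phosphorylate the translation factor eIF2, bulk translation falls, and ATF4 mRNA is translated better because of short reading frames upstream of its coding sequence. ATF4 then binds DNA together with C/EBP family partners and raises genes for amino acid synthesis and uptake, tRNA charging and feedback control. Serine is made from a glycolytic intermediate by PHGDH, PSAT1 and PSPH, and its conversion to glycine by the SHMT enzymes feeds carbon units into folate metabolism, a route that many breast tumours use heavily. ATF4 activity is set largely by translation, so an mRNA level of ATF4 does not measure it.

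The libraries held 34204970 to 41373890 counts, of which the 32 genes took 0.18% to 0.38%. Levels are given as counts scaled to library size (CPM), a scale that is not divided by gene length and so is compared only within a gene. Pairs of CPM values are in the order replicate 1, replicate 3. Folds are log2 fold changes ± SE from edgeR's quasi-likelihood test, and "rose" or "fell" means a Benjamini-Hochberg adjusted p under 0.05 over all genes tested. "With the block" marks the fit in which the replicate numbers form a block. FKBP5 and SGK1, which progestins induce, rose at both doses and times, and PGR fell in every comparison with vehicle except 100 pM at 6 h (-0.51 ± 0.29, adjusted p 0.614). With the block PGR was called down there too. Both of its 100 pM libraries at 6 h (1540 and 1189 CPM) lay below both vehicle libraries (2111 and 1786 CPM). All 9 luminal epithelial markers stood above 1 CPM in every library. Their summed level was 5332 to 7038 CPM at 10 nM, against 11140 to 11800 CPM in vehicle. Of 9 measured markers of immune, endothelial and fibroblast cells, 2 or 3 passed 1 CPM in a library, among COL1A1 at 66.1 to 113.9 CPM, CD68 at 2.16 to 3.92 CPM and COL3A1. PTPRC stood at 0.127 CPM or less, and CD3E, CDH5 and COL1A2 at 0.0287 CPM or less. VWF rose at 10 nM at both times (0.526 to 0.927 CPM at 10 nM, against 0.0812 to 0.252 CPM in vehicle), and PDGFRB rose at 6 h (0.415 and 0.423 CPM at 10 nM, against 0.0254 and 0 CPM in vehicle). Of the 5 markers tested, 1 fell at 18 h at each dose. COL1A1 at 18 h stood at 79.7 and 66.1 CPM at 10 nM and 81.35 and 75.9 CPM at 100 pM, against 113.9 and 111.4 CPM in vehicle. The part of other cells in the results was not tested. In bulk RNA, fewer cells of a state and less RNA per cell cannot be told apart.

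At 10 nM the enzymes MTHFD2, PCK2, PYCR1 and ALDH18A1 rose at both times, as did DDIT4 and VLDLR, and ATF5 fell at both. At 6 h, 12 of the 32 genes rose and 2 fell, which is 43.8% called, against 42.0% of all genes tested (22.6% up and 19.4% down). The median log2 fold change was 0.62 over the 32 genes, against -0.02 over all genes. With the block, 23 rose and 6 fell, which is 90.6% called, against 62.4% of all genes. In the fit without the block the 14 calls became 8 without the 10 nM replicate 1 and 9 without the vehicle replicate 3. Upper-quartile scaling moved the median over all genes to -0.15. It called 2508 of all genes up and 3528 down, against 3132 up and 2694 down here, and 11 of the 32 genes up and 3 down. Without the block the share called was close to that of all genes, and with it the share was higher than that of all genes.

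At 18 h, 8 genes rose and 2 fell at 10 nM, which is 31.2% called, against 34.1% of all genes (19.0% up and 15.2% down). The median was 0.60, against -0.00 over all genes, and with the block 21 rose and 6 fell (84.4% called, against 56.0% of all genes). At 100 pM for 6 h only STC2 rose (3.12% called, against 3.48% of all genes, 2.88% up and 0.606% down), and the median was 0.09, against -0.02. With the block 6 rose and 1 fell (21.9% called, against 12.2% of all genes). At 100 pM for 18 h, 5 genes rose and JDP2 fell (18.8% called, against 10.5% of all genes, 6.57% up and 3.89% down), with a median of 0.30, against -0.03. With the block 17 rose and 3 fell (62.5% called, against 34.1% of all genes). In the fit without the block the 6 calls became 3 without the 100 pM replicate 3 and 3 without the vehicle replicate 1. The comparisons of both doses at a time share their vehicle libraries.

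**Figure D1:**
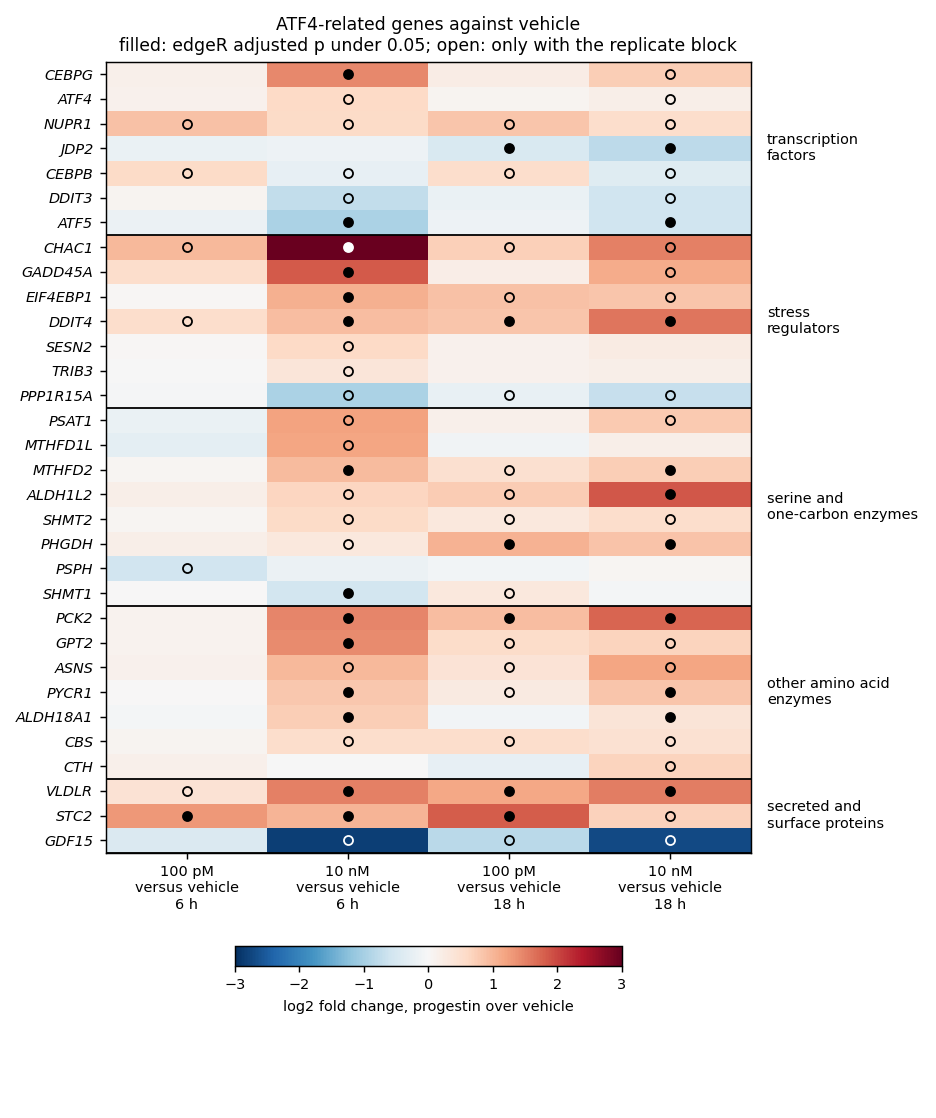
Log2 fold change of each of the 32 genes (rows) in the 4 comparisons with vehicle (columns), with a filled dot where edgeR's adjusted p was under 0.05 and an open dot where it was so only with the replicate block. The 10 nM columns hold 14 and 10 filled dots (43.8% and 31.2%, against 42.0% and 34.1% of all genes). The 100 pM columns hold 1 and 6 (3.12% and 18.8%, against 3.48% and 10.5%).

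Many of these genes differed between the replicate numbers in the same direction in every group. Of the 32 genes, 22 (68.8%) were higher in replicate 1 than in replicate 3 in all 6 groups, against 2930 of the 13872 genes tested (21.1%). ATF5, SHMT1, CTH and ALDH18A1 (12.5%) were higher in replicate 3 in all 6 groups, against 20.5% of all genes. GDF15 was 1.82 to 4.59 times as high in replicate 1 as in replicate 3, CHAC1 1.69 to 3.74 times, ASNS 1.66 to 2.21 times and DDIT3 1.63 to 2.04 times. ATF4 was 1.28 to 1.56 times as high. The 13 genes of the mitochondrial genome took 6.69% to 10.8% of a library, and in every group replicate 3 had the larger share. COL3A1, a fibroblast collagen, likewise stood at 0.603 to 1.81 CPM in the replicate 1 libraries and 5.98 to 9.48 CPM in the replicate 3 libraries. What the numbers share is not given, and their part in these values was not tested.

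**Figure D2:**
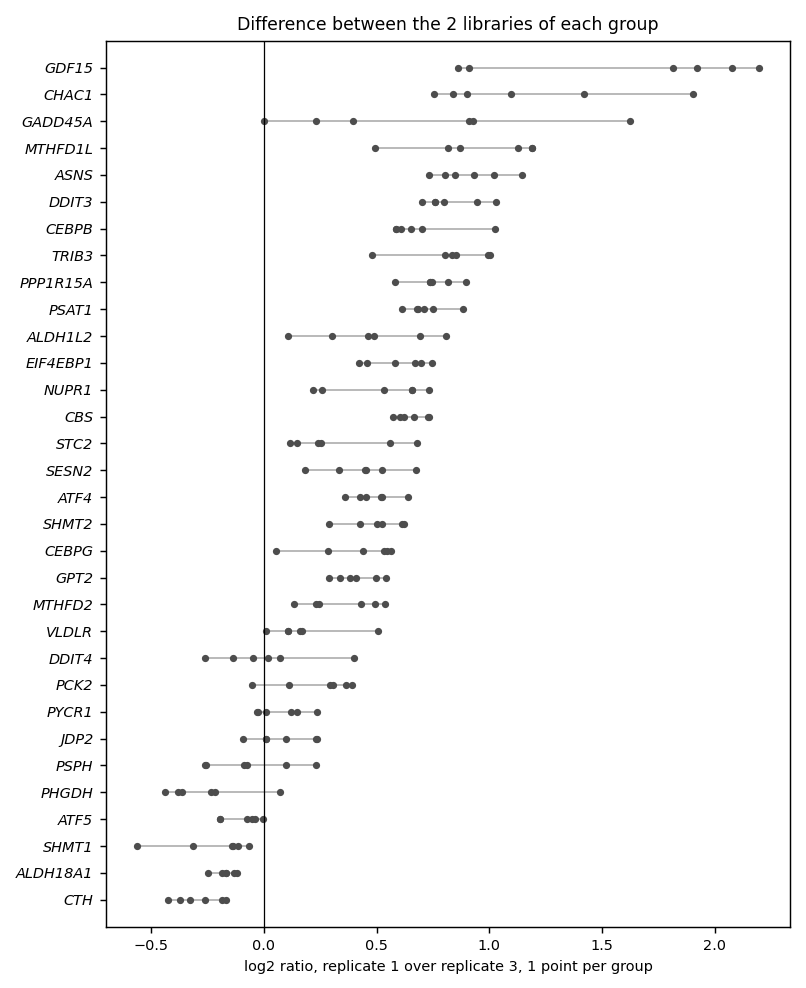
Log2 ratio of replicate 1 over replicate 3 for each of the 32 genes, with 1 point for each of the 6 groups. Points right of 0 are higher in replicate 1, which holds for all 6 points in 22 genes, with GDF15 and CHAC1 reaching farthest.

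Directions were also read within each replicate number. Between 10 nM and vehicle at 6 h, 23 of the 32 genes were higher at 10 nM within both numbers, 6 were lower within both and 3 were mixed. One sign in both numbers was thus held by 90.6% of the 32 genes, against 87.7% of all genes tested, and higher in both by 71.9%, against 42.8%. At 18 h the counts were 24, 6 and 2, with one sign in 93.8%, against 84.6% of all genes, and higher in both in 75.0%, against 42.0%. At 100 pM they were 18, 7 and 7 at 6 h (one sign in 78.1%, against 71.3%) and 21, 8 and 3 at 18 h (90.6%, against 78.7%). Agreement in sign was therefore common over all genes.

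**Figure D3:**
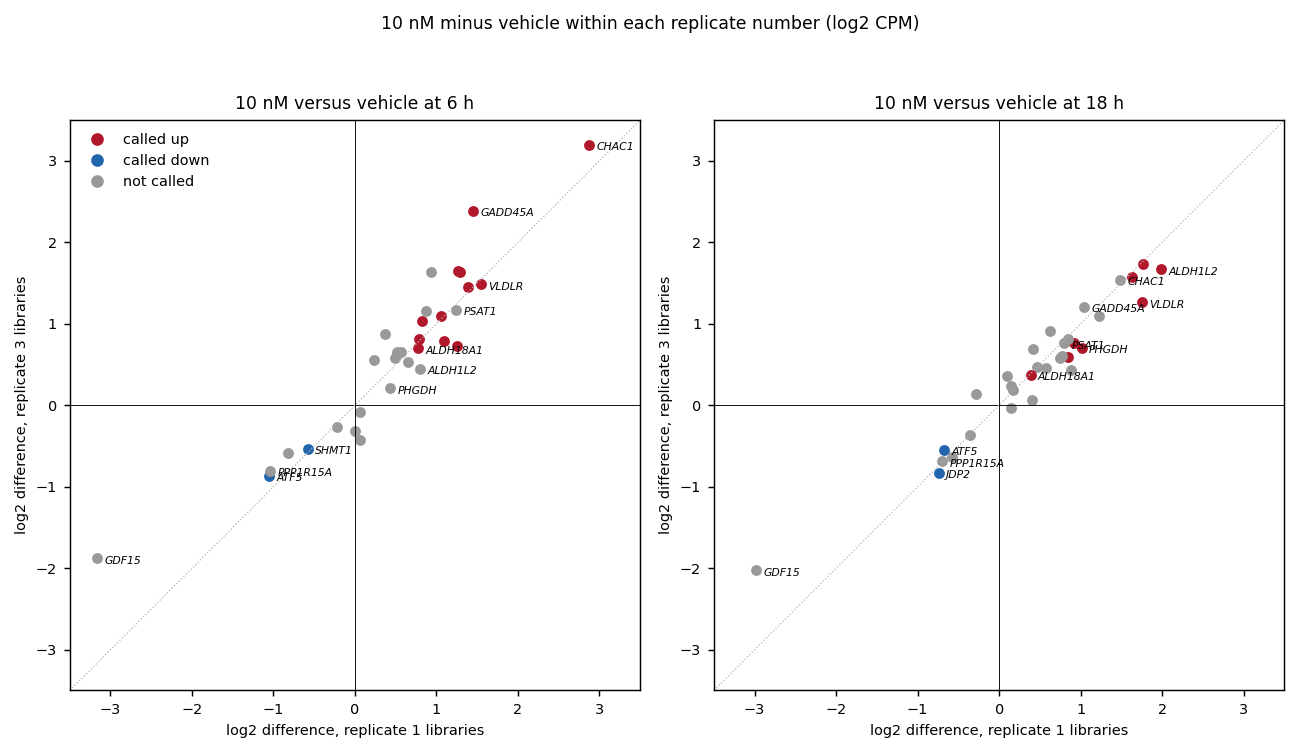
Log2 difference of 10 nM minus vehicle within replicate 1 (x axis) and within replicate 3 (y axis) for the 32 genes, at 6 h and at 18 h, in red or blue where the gene rose or fell and grey where it was not called. Points in the upper right or lower left have the same sign in both numbers, as 29 of 32 do at 6 h (87.7% of all genes tested) and 30 of 32 at 18 h (84.6%).

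ATF4 and its C/EBP partners are known to bind composite elements written here as TGATGNAA, and this element is shown because it links the genes to that factor by sequence. Promoter windows of 250 bases before to 50 after the start were taken from RefSeq (GRCh38.p14, while the counts were made on hg19) and were given for 24 of the 32 genes. The element, searched on both strands, was in windows of 5 of these 24 genes, against 1217 of 27305 genes (4.46%). Genes can have several windows. By window it was in 7 of 40, against 1270 of 35116 (3.62%), with the same MTHFD1L site held by several windows. The genes were chosen partly as known ATF4 targets, so these shares are a description and not a test. The palindrome of the progesterone receptor, searched as GNACA and TGTNC with 3 bases between them, was in none of the 24, against 131 of 27305 genes (0.48%). At so low a share, most lists of 24 genes would hold no match. Whether the receptor acts on these genes was not tested. A match is letters only, and no binding was measured. The stretches below run 5′ to 3′ on the gene's strand, with the element in capitals. They lie at chr15:40953251-40953280 (plus strand, CHAC1), chr7:97872458-97872487 (minus strand, ASNS), chr19:33374013-33374112 (plus strand, CEBPG), chr14:75427922-75428021 (plus strand, JDP2) and chr6:150866346-150866375 (plus strand, MTHFD1L). In CHAC1 the element reads on the opposite strand, and it starts at position -209 from the start site. In ASNS it starts at -68, in CEBPG at -42 and in JDP2 at -16.
CHAC1: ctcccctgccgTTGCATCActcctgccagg
ASNS: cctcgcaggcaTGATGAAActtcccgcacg
CEBPG: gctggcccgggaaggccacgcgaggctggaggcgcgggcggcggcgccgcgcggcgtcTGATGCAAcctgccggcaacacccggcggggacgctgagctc
JDP2: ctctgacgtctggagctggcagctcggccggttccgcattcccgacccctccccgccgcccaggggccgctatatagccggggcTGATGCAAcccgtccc
MTHFD1L: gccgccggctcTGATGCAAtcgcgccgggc
At 10 nM for 6 h CHAC1, CEBPG, ASNS and MTHFD1L were higher than vehicle within both replicate numbers. All 4 were called with the block, and CHAC1 and CEBPG also without it. JDP2 was called in neither fit at 6 h and fell at 18 h.

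Of the 7 transcription factors, CEBPG rose and ATF5 fell at 10 nM for 6 h, and ATF5 and JDP2 fell at 18 h. These are 28.6% called at each time, against 42.0% and 34.1% of all genes. With the block the shares were 85.7% and 100%, against 62.4% and 56.0%. ATF4 mRNA stood at 233 and 170.4 CPM in vehicle, 259 and 181 CPM at 100 pM and 345 and 269 CPM at 10 nM at 6 h. At 18 h it stood at 284 and 197 CPM in vehicle, 312 and 200.3 CPM at 100 pM and 313 and 233 CPM at 10 nM. Both 10 nM libraries lay above both vehicle libraries at 6 h, and the groups overlapped at 18 h. The difference from vehicle at 10 nM was 0.60 ± 0.30 at 6 h (adjusted p 0.139, and 9.26e-06 with the block) and 0.18 ± 0.30 at 18 h (0.678, and 0.0341 with the block). At 100 pM it was 0.13 ± 0.30 at 6 h (adjusted p 1, and 0.333 with the block) and 0.09 ± 0.30 at 18 h (0.892, and 0.397 with the block). Leaving out single libraries gave -0.06 to 0.47 for 10 nM at 18 h, a range that includes both signs.

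ATF5, a factor related to ATF4 that is also regulated in translation, varied little between libraries. It stood at 52.9 and 53.0 CPM in vehicle, 46.0 and 47.7 CPM at 100 pM and 25.5 and 29.1 CPM at 10 nM at 6 h. Values at 18 h were 47.1 and 49.5 CPM in vehicle, 42.7 and 43.8 CPM at 100 pM and 29.6 and 33.8 CPM at 10 nM. At each time both 10 nM libraries were the lowest, with both 100 pM libraries between them and vehicle. ATF5 fell by 0.96 ± 0.09 on the log2 scale at 6 h (1.94-fold lower, adjusted p 8.61e-05) and fell by 0.61 ± 0.09 at 18 h (1.52-fold lower, adjusted p 0.00122). RefSeq places the genes IL4I1 and NUP62 over part of ATF5, and whether counting used strand is not given in the sources used here.

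CEBPG, a C/EBP protein that pairs with ATF4, stood at 64.3 and 47.4 CPM in vehicle, 73.7 and 51.0 CPM at 100 pM and 154 and 149 CPM at 10 nM at 6 h. The 18 h levels were 94.5 and 63.9 CPM in vehicle, 111 and 75.6 CPM at 100 pM and 146 and 119.8 CPM at 10 nM. The 10 nM libraries were above all others of their time. CEBPG rose at 10 nM for 6 h (1.44 ± 0.27, 2.71-fold, adjusted p 0.00297), and at 18 h the difference was 0.75 ± 0.27 (adjusted p 0.0612, and 0.000149 with the block).

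DDIT3 encodes CHOP, a C/EBP relative that drives stress-induced death, and its values were lower at 10 nM than in vehicle within each replicate number. It stood at 65.4 and 32.1 CPM in vehicle, 67.8 and 35.2 CPM at 100 pM and 37.1 and 21.3 CPM at 10 nM at 6 h. By 18 h it had 101 and 62.2 CPM in vehicle, 89.6 and 52.9 CPM at 100 pM and 67.7 and 39.9 CPM at 10 nM. The groups overlapped across the numbers. The difference between 10 nM and vehicle was -0.74 ± 0.50 at 6 h (adjusted p 0.271, and 1.18e-05 with the block) and -0.60 ± 0.50 at 18 h (0.389, and 3.95e-05 with the block). RefSeq places MARS1, a tRNA synthetase gene, over part of DDIT3, so reads of both could be mixed if counting used no strand.

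JDP2, a repressor that binds AP-1 sites, stood at 57.5 and 61.4 CPM in vehicle, 51.7 and 51.3 CPM at 100 pM and 57.7 and 49.1 CPM at 10 nM at 6 h. After 18 h the libraries held 66.4 and 66.0 CPM in vehicle, 52.2 and 44.4 CPM at 100 pM and 39.7 and 37.1 CPM at 10 nM, an order with no overlap. JDP2 fell at 18 h by 0.79 ± 0.10 at 10 nM (1.73-fold lower, adjusted p 0.000556) and fell by 0.46 ± 0.10 at 100 pM (1.37-fold lower, adjusted p 0.0267). The 100 pM call was lost without the 100 pM replicate 3 or either vehicle library (adjusted p 0.109 to 0.144), and in a fit to 18 h alone (0.0802). NUPR1, a stress-induced chromatin protein, and CEBPB, a C/EBP factor of the mammary gland, were called in none of the 4 comparisons with vehicle. NUPR1 ranged over 254 to 891 CPM and CEBPB over 69.5 to 252 CPM, both with their highest library at 100 pM for 18 h. At 100 pM their differences from vehicle were 0.87 and 0.58 at 6 h (with the block, adjusted p 0.000656 and 0.00142). At 18 h they were 0.84 and 0.53 (0.000453 and 0.00234 with the block). At 10 nM the 2 genes differed in sign. NUPR1 differed by 0.58 at 6 h and 0.53 at 18 h (with the block, adjusted p 0.00108 and 0.00253). CEBPB differed by -0.23 at 6 h and -0.36 at 18 h (0.0461 and 0.00692 with the block).

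**Figure D4:**
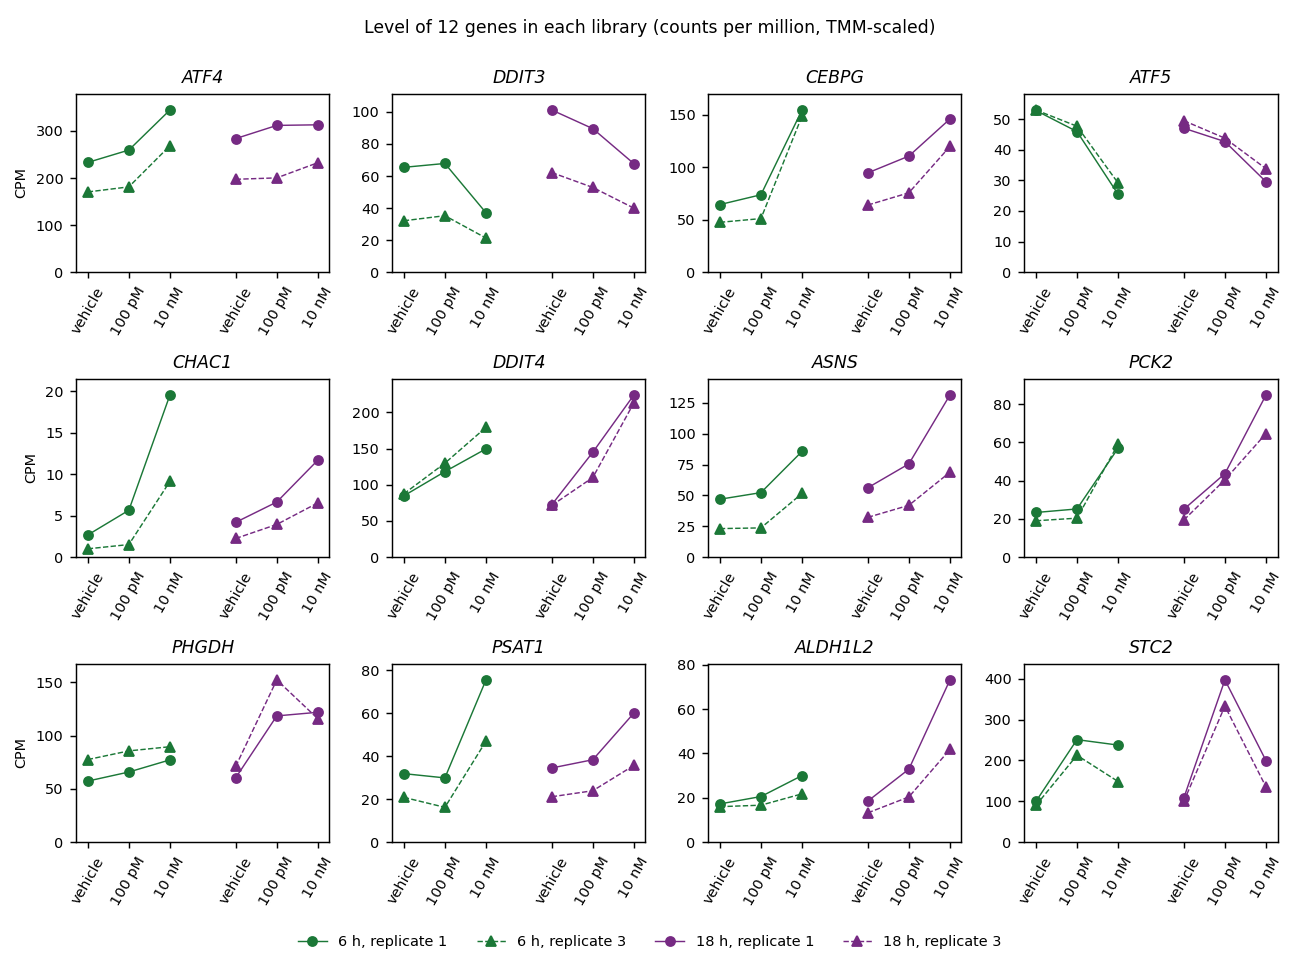
CPM of 12 of the genes in every library, by dose (vehicle, 100 pM, 10 nM) at 6 h (green) and 18 h (purple), with circles and solid lines for replicate 1 and triangles and dashed lines for replicate 3. ATF5 steps down and DDIT4 steps up with dose at both times, PCK2 steps up at 18 h, and STC2 is highest at 100 pM at 18 h.

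Of the 7 stress regulators, DDIT4, CHAC1, EIF4EBP1 and GADD45A rose at 10 nM for 6 h, and DDIT4 rose at 18 h. These are 57.1% and 14.3% called, against 42.0% and 34.1% of all genes. With the block the shares were 100% and 71.4%, against 62.4% and 56.0%. DDIT4, an inhibitor of the growth kinase complex mTORC1 that glucocorticoids and hypoxia are known to induce, stood at 84.7 and 87.4 CPM in vehicle, 118 and 129.8 CPM at 100 pM and 149.6 and 179 CPM at 10 nM at 6 h. At 18 h it stood at 72.3 and 71.4 CPM in vehicle, 145 and 110.0 CPM at 100 pM and 224 and 213 CPM at 10 nM. At each time the 3 doses were in ascending order with no overlap. DDIT4 rose at 10 nM by 0.94 ± 0.14 at 6 h (1.91-fold, adjusted p 0.000686) and 1.61 ± 0.14 at 18 h (3.04-fold, adjusted p 4.98e-05). At 100 pM it rose at 18 h (0.83 ± 0.14, 1.77-fold, adjusted p 0.00636, but 0.0512 without the vehicle replicate 1). The 100 pM difference at 6 h was 0.53 ± 0.14 (adjusted p 0.083, and 0.019 with the block).

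CHAC1, an enzyme that degrades glutathione, was among the scarcest of the 32 genes in counts. It stood at 2.67 and 0.999 CPM in vehicle, 5.65 and 1.51 CPM at 100 pM and 19.6 and 9.14 CPM at 10 nM at 6 h. Values at 18 h were 4.19 and 2.25 CPM in vehicle, 6.65 and 3.94 CPM at 100 pM and 11.7 and 6.54 CPM at 10 nM. Only the 10 nM groups stood clear of vehicle at both times. CHAC1 rose at 10 nM for 6 h (2.97 ± 0.74, 7.81-fold, adjusted p 0.012), and the call was lost without the 10 nM replicate 1 or the vehicle replicate 3 (0.0682 and 0.0809). At 18 h the difference was 1.50 ± 0.71 (adjusted p 0.137, and 0.00012 with the block).

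GADD45A, a growth arrest and DNA damage protein, stood at 5.85 and 3.07 CPM in vehicle, 9.69 and 3.14 CPM at 100 pM and 16.0 and 16.0 CPM at 10 nM at 6 h. The 18 h levels were 7.24 and 5.50 CPM in vehicle, 9.58 and 5.09 CPM at 100 pM and 14.9 and 12.7 CPM at 10 nM. GADD45A differed by 1.11 ± 0.51 at 10 nM for 18 h (adjusted p 0.127, and 0.014 with the block). It rose at 10 nM for 6 h (1.84 ± 0.52, 3.59-fold, adjusted p 0.0202), a call lost without either 10 nM library or the vehicle replicate 3 (0.0588 to 0.126). EIF4EBP1, which holds back cap-dependent translation, stood at 29.9 and 21.8 CPM in vehicle, 33.4 and 19.9 CPM at 100 pM and 62.3 and 46.5 CPM at 10 nM at 6 h. By 18 h it had 39.3 and 24.7 CPM in vehicle, 71.1 and 47.5 CPM at 100 pM and 70.5 and 43.5 CPM at 10 nM, where both doses lay above vehicle. The 18 h difference from vehicle was 0.83 ± 0.36 at 10 nM (adjusted p 0.114, and 4.94e-06 with the block). For 100 pM at 18 h EIF4EBP1 differed by 0.89 ± 0.36 (0.166, and 9.91e-06 with the block). It rose at 10 nM for 6 h (1.07 ± 0.37, 2.10-fold, adjusted p 0.0436), a call lost without any 1 of the 4 libraries (0.0574 to 0.208).

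The feedback genes of the pathway were not called in comparisons with vehicle. PPP1R15A, the phosphatase subunit that reverses eIF2 phosphorylation, had 23.1 to 58.7 CPM at 10 nM over both times, against 40.4 to 95.5 CPM in vehicle. Both of its 10 nM libraries lay below both vehicle libraries at 6 h, with overlap at 18 h. Its difference at 10 nM was -0.95 ± 0.46 at 6 h (adjusted p 0.128, and 5.25e-07 with the block). TRIB3, a pseudokinase that restrains ATF4, ranged over 43.6 to 141 CPM, and SESN2, a leucine sensor that restrains mTORC1, over 24.6 to 49.5 CPM. TRIB3 differed by 0.36 ± 0.50 at 10 nM for 6 h (adjusted p 0.594, and 0.00582 with the block) and SESN2 by 0.60 ± 0.28 (0.122, and 0.000229 with the block).

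Of the 8 serine and one-carbon enzymes, MTHFD2 rose and SHMT1 fell at 10 nM for 6 h. PHGDH, MTHFD2 and ALDH1L2 rose at 10 nM for 18 h, and PHGDH rose at 100 pM for 18 h. At 10 nM these are 25% called at 6 h and 37.5% at 18 h, against 42.0% and 34.1% of all genes. At 100 pM for 18 h the share was 12.5%, against 10.5%. With the block the 10 nM shares were 87.5% and 62.5%, against 62.4% and 56.0%. PHGDH, which commits carbon to serine, stood at 57.3 and 77.5 CPM in vehicle, 65.8 and 85.7 CPM at 100 pM and 77.3 and 89.6 CPM at 10 nM at 6 h. After 18 h the libraries held 60.4 and 71.1 CPM in vehicle, 119 and 152 CPM at 100 pM and 122 and 116 CPM at 10 nM. Both doses lay clear of vehicle at 18 h and overlapped each other. PHGDH rose at 18 h by 0.86 ± 0.19 at 10 nM (1.81-fold, adjusted p 0.00897) and 1.04 ± 0.19 at 100 pM (2.06-fold, adjusted p 0.0116). The 10 nM call was lost without the vehicle replicate 1 (0.0644), and the 100 pM call without that library or the 100 pM replicate 3 (0.0692 to 0.0958). At 10 nM for 6 h the difference was 0.31 ± 0.19 (adjusted p 0.232, and 0.0195 with the block).

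PSAT1, the next enzyme, showed its highest values at 6 h rather than 18 h. It stood at 31.9 and 20.9 CPM in vehicle, 29.9 and 16.2 CPM at 100 pM and 75.6 and 47.0 CPM at 10 nM at 6 h. At 18 h it stood at 34.5 and 21.1 CPM in vehicle, 38.4 and 23.9 CPM at 100 pM and 60.1 and 35.7 CPM at 10 nM. Both 10 nM libraries lay above both vehicle libraries at both times. The difference from vehicle at 10 nM was 1.22 ± 0.43 at 6 h (adjusted p 0.051, 4.66e-08 with the block and 0.0104 by DESeq2) and 0.78 ± 0.43 at 18 h (0.199, and 2.55e-06 with the block). PSPH, the last enzyme of the serine route, ranged over 11.4 to 20.3 CPM and was called in no comparison with vehicle, with -0.57 at 100 pM for 6 h (adjusted p 0.0641, and 0.00711 with the block). RefSeq names a PSPH pseudogene and 4 PSAT1 pseudogenes, which could take or lend reads.

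SHMT1 and SHMT2 make glycine from serine in the cytosol and in mitochondria, and SHMT1 fell where SHMT2 was not called. SHMT2 stood at 159 and 118 CPM in vehicle, 172 and 119 CPM at 100 pM and 228 and 186 CPM at 10 nM at 6 h. Values at 18 h were 179 and 126 CPM in vehicle, 230.2 and 151 CPM at 100 pM and 267 and 173 CPM at 10 nM. At 6 h both 10 nM libraries were the highest, and at 18 h the groups overlapped. At 10 nM it differed by 0.58 ± 0.31 at 6 h (adjusted p 0.166, and 3.56e-05 with the block). SHMT1 stood at 41.0 and 42.9 CPM in vehicle, 39.9 and 44.0 CPM at 100 pM and 27.4 and 29.6 CPM at 10 nM at 6 h. The 18 h levels were 39.2 and 43.1 CPM in vehicle, 45.7 and 56.8 CPM at 100 pM and 32.1 and 47.4 CPM at 10 nM, with overlap. SHMT1 fell at 10 nM for 6 h by 0.56 ± 0.18 (1.47-fold lower, adjusted p 0.0326), a call lost without any 1 of the 4 libraries (0.0802 to 0.144).

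MTHFD2, which oxidises folate-bound carbon in mitochondria, stood at 104 and 88.6 CPM in vehicle, 115 and 85.0 CPM at 100 pM and 221 and 152 CPM at 10 nM at 6 h. By 18 h it had 111 and 93.9 CPM in vehicle, 149 and 136 CPM at 100 pM and 199.5 and 142 CPM at 10 nM. Both 10 nM libraries lay above both vehicle libraries at each time. MTHFD2 rose at 10 nM at 6 h (0.96 ± 0.23, 1.94-fold, adjusted p 0.0102) and at 18 h (0.73 ± 0.23, 1.66-fold, adjusted p 0.038). The 6 h call was lost without the 10 nM replicate 1 or the vehicle replicate 3 (0.0712 and 0.0755), and the 18 h call without the 10 nM replicate 1 or either vehicle library (0.0762 to 0.219).

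ALDH1L2, which releases the folate-bound carbon as carbon dioxide in mitochondria, was high late. It stood at 17.2 and 16.0 CPM in vehicle, 20.6 and 16.6 CPM at 100 pM and 30.0 and 21.8 CPM at 10 nM at 6 h. After 18 h the libraries held 18.5 and 13.2 CPM in vehicle, 32.9 and 20.4 CPM at 100 pM and 73.2 and 41.9 CPM at 10 nM. At 18 h the 3 doses did not overlap. ALDH1L2 rose at 10 nM for 18 h (1.86 ± 0.33, 3.63-fold, adjusted p 0.00267), and at 6 h the difference was 0.64 ± 0.32 (adjusted p 0.145, and 0.0029 with the block). MTHFD1L, which makes formate in mitochondria, ranged over 8.05 to 42.8 CPM. Its difference at 10 nM was 1.19 ± 0.58 at 6 h (adjusted p 0.134, and 2.63e-05 with the block) and 0.19 ± 0.57 at 18 h (0.831, and -0.31 to 0.86 when single libraries were left out).

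Of the other 7 amino acid enzymes, GPT2, PCK2, PYCR1 and ALDH18A1 rose at 10 nM for 6 h, and PCK2, PYCR1 and ALDH18A1 rose at 18 h. These are 57.1% and 42.9% called, against 42.0% and 34.1% of all genes. With the block the shares were 85.7% and 100%, against 62.4% and 56.0%. PCK2, the mitochondrial enzyme that makes phosphoenolpyruvate and so feeds serine synthesis, stood at 23.3 and 19.0 CPM in vehicle, 25.2 and 20.4 CPM at 100 pM and 56.9 and 59.0 CPM at 10 nM at 6 h. At 18 h it stood at 25.0 and 19.4 CPM in vehicle, 43.6 and 40.4 CPM at 100 pM and 84.8 and 64.6 CPM at 10 nM. The 18 h values were higher at each step of dose, without overlap. PCK2 rose at 10 nM by 1.45 ± 0.18 at 6 h (2.74-fold, adjusted p 0.000309) and 1.75 ± 0.18 at 18 h (3.37-fold, adjusted p 0.000147). At 100 pM it rose at 18 h (0.92 ± 0.18, 1.90-fold, adjusted p 0.0143), a call lost without either 100 pM library or the vehicle replicate 3 (0.0509 to 0.0958).

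GPT2, the mitochondrial alanine aminotransferase, stood at 29.5 and 22.2 CPM in vehicle, 32.5 and 23.0 CPM at 100 pM and 77.1 and 61.0 CPM at 10 nM at 6 h. Values at 18 h were 31.7 and 24.4 CPM in vehicle, 44.9 and 36.7 CPM at 100 pM and 53.1 and 36.5 CPM at 10 nM. The 10 nM values were thus higher at 6 h than at 18 h. GPT2 rose at 10 nM for 6 h (1.42 ± 0.26, 2.67-fold, adjusted p 0.00248), and at 18 h the difference was 0.68 ± 0.26 (adjusted p 0.0731, and 1.18e-05 with the block).

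PYCR1 and ALDH18A1 catalyse steps of proline synthesis in mitochondria and had little spread between libraries. PYCR1 stood at 100.2 and 99.4 CPM in vehicle, 106 and 95.4 CPM at 100 pM and 172 and 175 CPM at 10 nM at 6 h. The 18 h levels were 97.0 and 98.9 CPM in vehicle, 129 and 109 CPM at 100 pM and 183 and 168 CPM at 10 nM. PYCR1 rose at 10 nM at 6 h (0.80 ± 0.09, 1.74-fold, adjusted p 0.000232) and at 18 h (0.84 ± 0.10, 1.79-fold, adjusted p 0.000226). The other proline gene also lay above vehicle in both 10 nM libraries at each time. ALDH18A1 stood at 94.4 and 112 CPM in vehicle, 93.2 and 105 CPM at 100 pM and 162 and 182 CPM at 10 nM at 6 h. By 18 h it had 93.6 and 103 CPM in vehicle, 86.6 and 98.4 CPM at 100 pM and 122 and 133 CPM at 10 nM. ALDH18A1 rose at 10 nM at 6 h (0.73 ± 0.12, 1.66-fold, adjusted p 0.00121) and at 18 h (0.38 ± 0.12, 1.30-fold, adjusted p 0.0347). The 18 h call was lost without any 1 of the 4 libraries (0.0632 to 0.178) and under upper-quartile scaling (0.106).

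ASNS, which makes asparagine and is a standard ATF4 target, had a large spread between the numbers. It stood at 46.9 and 23.1 CPM in vehicle, 52.3 and 23.7 CPM at 100 pM and 85.7 and 51.6 CPM at 10 nM at 6 h. After 18 h the libraries held 56.2 and 32.2 CPM in vehicle, 75.6 and 42.0 CPM at 100 pM and 131 and 68.8 CPM at 10 nM. Both 10 nM libraries exceeded both vehicle libraries at each time. The difference at 10 nM was 0.97 ± 0.55 at 6 h (adjusted p 0.19, and 1.14e-06 with the block) and 1.18 ± 0.55 at 18 h (0.133, and 3.66e-07 with the block). CTH and CBS, the enzymes that turn homocysteine into cysteine, ranged over 1.61 to 3.82 CPM and 26.8 to 61.5 CPM and were not called against vehicle. CTH differed by 0.67 ± 0.24 at 10 nM for 18 h (adjusted p 0.0584, and 0.00443 with the block). CBS differed at 10 nM by 0.52 ± 0.39 at 6 h (0.319, and 2.21e-05 with the block) and 0.47 ± 0.39 at 18 h (0.397, and 8.28e-05 with the block). At 100 pM it differed by 0.09 ± 0.39 at 6 h (0.456 with the block) and 0.52 ± 0.39 at 18 h (0.461, and 8.32e-05 with the block).

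Of the 3 secreted or surface proteins, VLDLR and STC2 rose and GDF15 was not called. At 10 nM 66.7% were called at 6 h and 33.3% at 18 h, against 42.0% and 34.1% of all genes. At 100 pM the shares were 33.3% and 66.7%, against 3.48% and 10.5%. With the block all 3 were called at 10 nM at both times, against 62.4% and 56.0% of all genes. STC2, a secreted glycoprotein related to stanniocalcin, was the only one of the 32 genes that rose at 100 pM for 6 h. It stood at 99.3 and 89.6 CPM in vehicle, 251 and 212 CPM at 100 pM and 237 and 148 CPM at 10 nM at 6 h. At 18 h it stood at 108 and 99.7 CPM in vehicle, 397 and 333 CPM at 100 pM and 199 and 135 CPM at 10 nM. Both doses lay above vehicle at both times, and at 18 h both 100 pM libraries lay above both 10 nM libraries. At 10 nM STC2 rose at 6 h (1.03 ± 0.24, 2.04-fold, adjusted p 0.00897), a call lost without the 10 nM replicate 1 or the vehicle replicate 3 (0.0594 and 0.064), and at 18 h differed by 0.69 ± 0.24 (0.0572, and 0.00134 with the block). At 100 pM it rose by 1.29 ± 0.24 at 6 h (2.45-fold, adjusted p 0.0215), a call lost without any 1 of the 4 libraries (0.0677 to 0.176), and by 1.81 ± 0.25 at 18 h (3.51-fold, adjusted p 0.00291).

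VLDLR, a lipoprotein receptor, stood at 8.45 and 7.84 CPM in vehicle, 11.3 and 10.5 CPM at 100 pM and 24.7 and 21.9 CPM at 10 nM at 6 h. Values at 18 h were 8.95 and 8.88 CPM in vehicle, 21.0 and 18.7 CPM at 100 pM and 30.2 and 21.3 CPM at 10 nM. The doses were in order with no overlap at both times. VLDLR rose at 10 nM at 6 h (1.52 ± 0.17, 2.87-fold, adjusted p 0.000145) and at 18 h (1.53 ± 0.17, 2.89-fold, adjusted p 0.000171), and at 100 pM at 18 h (1.15 ± 0.16, 2.23-fold, adjusted p 0.00333). GDF15, a stress-induced cytokine, had 1.69 to 6.83 CPM at 10 nM over both times, against 6.22 to 53.9 CPM in vehicle. Within each time, both of its 10 nM libraries lay below both vehicle libraries. Its difference at 10 nM was -2.83 ± 1.08 at 6 h (adjusted p 0.0648, 9.21e-05 with the block and 0.0193 by DESeq2) and -2.71 ± 1.04 at 18 h (0.0771, and 6.66e-05 with the block). DDIT3, PPP1R15A and GDF15 were thus lower at 10 nM within both replicate numbers at 6 h, while ASNS, PSAT1 and CHAC1 were higher within both.

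Set directly against 100 pM, 10 nM gave at 6 h 9 rises and 2 falls among the 32 genes (34.4% called, against 37.0% of all genes, 20.1% up and 16.8% down). With the block 21 rose and 6 fell, where 59.3% of all genes were called. In the fit without the block the 11 calls became 7 without the 100 pM replicate 3, and upper-quartile scaling split all genes into 2326 up and 2975 down, against 2795 up and 2332 down. PCK2 (1.35 ± 0.18, adjusted p 0.000568), GPT2 (1.31 ± 0.26, 0.00426) and CEBPG (1.28 ± 0.27, 0.00613) rose, and so did VLDLR, PYCR1, ALDH18A1, MTHFD2, DDIT4 and PSAT1. PSAT1 (1.41 ± 0.44, adjusted p 0.0333) lost its call without the 100 pM replicate 3 or the 10 nM replicate 1 (0.173 and 0.183). ATF5 fell by 0.78 ± 0.09 (adjusted p 0.000313), and SHMT1 fell by 0.56 ± 0.18 (0.0357, lost without any 1 of the 4 libraries). Without the block none of these genes was called between 100 pM and vehicle at 6 h. With the block VLDLR (0.42, adjusted p 0.0388) and DDIT4 (0.53, 0.019, and 0.00707 by DESeq2) were called there.

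At 18 h, 10 nM against 100 pM gave 6 rises and 3 falls (28.1% called, against 26.2% of all genes, 14.8% up and 11.4% down). With the block 14 rose and 8 fell, where 50.2% of all genes were called. In the fit without the block the 9 calls became 5 without the 100 pM replicate 1 and 5 without the 10 nM replicate 1. DDIT4 (0.78 ± 0.14, adjusted p 0.00318), PYCR1 (0.56 ± 0.09, 0.00277), PCK2 (0.83 ± 0.18, 0.00915), ALDH1L2 (1.11 ± 0.32, 0.0337), CTH and ALDH18A1 rose. STC2 fell by 1.13 ± 0.24 (2.18-fold lower at 10 nM, adjusted p 0.00944, and 0.0501 without the 100 pM replicate 1), and ATF5 and JDP2 fell by 0.45 ± 0.09 and 0.33 ± 0.10 (0.00788 and 0.0466). STC2 libraries thus lay above vehicle at both doses, and lower at 10 nM than at 100 pM.

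Between 18 h and 6 h few of the 32 genes were called. In 10 nM cells ALDH1L2 rose (1.15 ± 0.32, adjusted p 0.0314), and JDP2 and ALDH18A1 fell by 0.48 ± 0.10 and 0.43 ± 0.12 (0.0119 and 0.0295), which is 9.38% of the genes, against 24.5% of all genes (11.4% up and 13.1% down). The count was 1 without the 18 h replicate 3, 0 without the 6 h replicate 1 and 1 without the 6 h replicate 3. With the block 12 rose and 6 fell, where 49.2% of all genes were called. In 100 pM cells VLDLR rose (0.86 ± 0.16, adjusted p 0.0482), which is 3.12%, against 1.18% of all genes (0.526% up and 0.656% down), and the call was lost without any 1 of the 4 libraries (0.155 to 0.238). With the block 19 rose and 1 fell there, where 22.2% of all genes were called. In vehicle cells none of the 32 genes was called by edgeR, as was true of all genes (0%), with 0 of the 32 at an unadjusted p under 0.05 and 0 by DESeq2. With the block DDIT3 was called there (0.74 ± 0.50 without the block, adjusted p 0.00679 with it, where 0.0288% of all genes were called). Within both replicate numbers, 23 of the 32 genes were higher at 18 h than at 6 h in vehicle and 6 were lower. Higher in both were thus 71.9%, against 30.4% of all genes. The share was 78.1% at 100 pM, against 35.2%, and 43.8% at 10 nM, against 41.8%. A shared upward direction was therefore also seen without progestin.

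The difference between the 10 nM effects at 18 h and at 6 h was called in JDP2 alone of the 32 genes (-0.63 ± 0.15, adjusted p 0.0309), where 10.5% of all genes were called (4.55% up and 5.99% down). DDIT4 was near the threshold (0.67 ± 0.19, adjusted p 0.0577, and 0.014 with the block). With the block 14 were called, against 35.1% of all genes, among them ALDH1L2 (1.22, adjusted p 0.00101), CHAC1 (-1.46, 0.00498), GPT2 (-0.74, 0.000271) and ATF4 (-0.42, 0.00579). For the 100 pM effect none was called by edgeR (0.0144% of all genes), with 4 at an unadjusted p under 0.05 and 0 by DESeq2, and with the block 6 were (5.60% of all genes), all larger at 18 h, PHGDH (0.88, adjusted p 0.00828) and PCK2 (0.82, 0.00967) among them.

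Neighbouring parts of the pathway were counted from lists of other genes. Of 20 cytosolic aminoacyl-tRNA synthetases, which load amino acids onto tRNAs, 13 rose and none fell at 10 nM for 6 h, and 3 rose and 1 fell at 18 h (with the block, 18 and 1, then 16 and 2). The shares called were 65% at 6 h, against 42.0% of all genes, and 20% at 18 h, against 34.1%. With the block they were 95.0% at 6 h, against 62.4% of all genes, and 90.0% at 18 h, against 56.0%. FARSB, a phenylalanine synthetase subunit, rose by 0.80 ± 0.07 at 6 h (adjusted p 5.39e-05), and RARS, the arginine synthetase, by 0.67 ± 0.07 (8.39e-05). At 100 pM for 6 h none was called by edgeR, with 0 at an unadjusted p under 0.05 and 0 by DESeq2, and 1 rose at 18 h. These are 0% and 5% called, against 3.48% and 10.5% of all genes. The median log2 fold change of the 20 at 10 nM was 0.53 at 6 h and 0.35 at 18 h.

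Of 12 amino acid transporters, 3 rose and 1 fell at 10 nM for 6 h, and 4 rose and 1 fell at 18 h (33.3% and 41.7% called, against 42.0% and 34.1% of all genes). SLC1A4, a carrier of serine and alanine, rose by 2.14 ± 0.11 at 6 h (adjusted p 3.36e-06) and by 1.44 ± 0.11 at 18 h (2.38e-05), and at 100 pM by 1.25 ± 0.11 at 18 h (0.00026). SLC7A2, a carrier of cationic amino acids, fell by 2.19 ± 0.40 at 6 h (adjusted p 0.00229) and fell by 3.39 ± 0.43 on the log2 scale at 18 h (0.000424). Of 15 eIF2 kinases and subunits of eIF2 and eIF2B, 7 rose and 2 fell at 10 nM for 6 h, and 1 rose and 2 fell at 18 h (60% and 20% called, against the same 42.0% and 34.1%). EIF2S1, the eIF2 subunit that is phosphorylated, rose at 6 h (0.77 ± 0.09, adjusted p 2e-04), and EIF2AK4, the amino acid sensing kinase GCN2, fell by 0.58 ± 0.09 (0.000811). The carriers and the kinase list thus held called genes of both signs. With the block, 66.7% of the carriers and 73.3% of the kinase list were called at 10 nM for 6 h, against 62.4% of all genes. At 18 h these shares were 66.7% and 46.7%, against 56.0% of all genes.

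Of 16 other tested folate and glycine enzymes, 5 rose and 2 fell at 10 nM for 6 h, 4 rose and 1 fell at 18 h, 1 rose at 100 pM for 6 h, and 3 rose and 1 fell at 100 pM for 18 h. The shares called were 43.8%, 31.2%, 6.25% and 25%, against 42.0%, 34.1%, 3.48% and 10.5% of all genes. With the block they were 62.5%, 62.5%, 12.5% and 56.2%, against 62.4%, 56.0%, 12.2% and 34.1%. GLDC, which breaks down glycine in mitochondria, rose at 10 nM by 2.81 ± 0.12 at 6 h (7.02-fold, adjusted p 1.84e-06) and 1.11 ± 0.11 at 18 h (2.16-fold, adjusted p 0.000123). At 100 pM it rose at 6 h by 0.71 ± 0.11 (1.63-fold, adjusted p 0.00876), a call lost without either 100 pM library or the vehicle replicate 3. Of 10 other tested genes known to respond to ATF4, 1 rose and 1 fell at 10 nM for 6 h and 1 rose at 18 h (20% and 10% called, against 42.0% and 34.1% of all genes). VEGFA, a growth factor for blood vessels, rose at 6 h (1.10 ± 0.14, adjusted p 0.000423), and TXNRD1, a thioredoxin reductase, fell by 2.05 ± 0.45 (0.00654).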

How the data were processed

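Per the labels' protocols, total RNA was made into Nextera libraries, and per the submitters' processing notes reads were handled with STAR on hg19, with DESeq2 named without a role. The deposited table holds the authors' raw counts per gene symbol, and no source used here gives the counter, annotation, strand setting or versions. All 12 columns were used, and 2709 of 20114 genes had no count.

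The counts were analysed in R 4.3.3 with edgeR 4.0.16 and limma 3.58.1, and with DESeq2 1.42.0 as an alternative. Genes were kept by filterByExpr (13872), TMM scaled the libraries, and edgeR's robust quasi-likelihood F test was run on 1 fit of all 12 libraries with 6 group coefficients. P-values were adjusted by Benjamini-Hochberg over all genes tested in a comparison, and a call was an adjusted p under 0.05 with no fold threshold. The SE is the log2 fold change divided by the square root of F. The script was tested on simulated counts.

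The 32 genes and all lists were chosen with earlier results of these data known. Values per library are given for genes called in a comparison with vehicle, and always for ATF4, DDIT3, ASNS, PHGDH, PSAT1 and SHMT2, with folds for up to 4 called genes per role group with the largest change. Up to 2 called genes with the smallest adjusted p were named from each other list, and the others by ranges. MTHFD1L, CBS, TRIB3, SESN2, NUPR1, CEBPB, PPP1R15A, PSPH, CTH and GDF15 are given by range, and the folds printed for them were added after their values were seen.

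Libraries that share a replicate number deviated together: their differences from the group mean correlated across genes between groups with r of 0.464 to 0.677 over 15 pairs of groups. The biological coefficient of variation was 0.163 without the block on replicate number and 0.0678 with it (6 and 5 residual degrees of freedom). The labels do not say what the numbers share. In RefSeq, 6 of the 32 genes overlap a coding gene and 8 have pseudogenes named after them, so their counts are uncertain. Each group has only 2 libraries, so the spread that sets precision was estimated over all 6 groups together.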

Additional observations from a re-analysis of the deposited data

Results flagged for a closer look

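JDP2 responded differently to 10 nM at the 2 times. Its effect at 18 h minus that at 6 h was -0.63 ± 0.15 on the log2 scale (edgeR's quasi-likelihood test of the difference, adjusted p 0.0309, and 0.00165 with the block). It stood at 39.7 and 37.1 CPM at 10 nM and 66.4 and 66.0 CPM in vehicle at 18 h, and at 57.7 and 49.1 CPM at 10 nM and 57.5 and 61.4 CPM in vehicle at 6 h. The call was lost without any 1 of 7 of the 8 libraries (adjusted p 0.0575 to 0.0958) and held only without the 10 nM replicate 3 of 6 h.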

How the results depend on the processing

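The counts of called genes among the 32 depended most on the block on replicate number. With it the counts were 29 and 27 for 10 nM against vehicle (6 h, 18 h; 14 and 10 without it), 7 and 20 for 100 pM against vehicle (1 and 6), and 27 and 22 for 10 nM against 100 pM (11 and 9). For 18 h against 6 h they were 18 at 10 nM, 20 at 100 pM and 1 in vehicle (3, 1 and 0), and for the differences between times 14 at 10 nM and 6 at 100 pM (1 and 0). For 10 nM against vehicle DESeq2 called 13 up and 3 down at 6 h, and 12 up and 3 down at 18 h. Of all genes it called 6169 and 5218 there, against 5826 and 4734 by edgeR. For 10 nM against 100 pM at 6 h it called 14 up and 2 down, and 5620 of all genes, against 5127 by edgeR. DESeq2 called 3 for 100 pM at 6 h, 4 for 100 pM over time and 2 for the 10 nM difference. Upper-quartile scaling called 2 in each of the last pair, and a fit to 6 h alone called 0 for 100 pM. Leaving out 1 library at a time gave 8 to 12 and 8 to 11 (10 nM against vehicle), 0 and 3 to 5 (100 pM), 7 to 12 and 5 to 8 (10 nM against 100 pM), 0 to 2 and 0 to 0 (over time at 10 nM and 100 pM), and 0 to 1 for the 10 nM difference. No called value of the 32 genes changed sign under the alternatives run. Of 352 log2 fold changes (32 genes in 11 comparisons), 132 took both signs when single libraries were left out, 43 of them in comparisons with vehicle, and none of these was called. The cause of lost calls was not tested. With 2 libraries per group, a gene that was not called is not shown to be unchanged.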
